A study of Mus musculus with 9 samples.

Results

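The 9 genes described here encode the core of the Hedgehog pathway: the secreted ligands Shh, Ihh and Dhh, the receptor Ptch1, the signal transducer Smo, the decoy receptor Hhip and the transcription factors Gli1, Gli2 and Gli3. They were chosen by name out of 21853 protein-coding genes. Their loci, each the gene body with 50 kb on either side, held 1003 of the 848955 peaks in 8 deposited peak lists.

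Hedgehog ligands are released by one cell and bind Ptch1 on another. Ptch1 without ligand keeps Smo inactive, and ligand binding frees Smo to act at the primary cilium. There the Gli proteins pass from repressor to activator forms. Gli3 is mainly a repressor and Gli2 the main activator, while Gli1, Ptch1 and Hhip are themselves switched on by the signal in many tissues. In the female tract the pathway is best known in the uterus, where Ihh from the epithelium acts on the stroma beneath it, and in the embryo it shapes the smooth muscle of tubular organs.

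Chromatin came from WT mice of 8 to 12 weeks, mated and taken on D2 of pregnancy, and no treated or mutant animals entered the comparison. Oviducts were digested, and the filtered cells, called smooth muscle by the labels, were plated for some hours and fixed, at 50000 cells per library. ChIC-Seq brings MNase, joined to protein A, to an antibody bound on chromatin, where it releases fragments for sequencing. It was done on 3 samples with an antibody to H3K27ac, a mark of active promoters and enhancers, 3 with H3K4me1, a mark of enhancers and of the flanks of promoters, and 3 with IgG as control. Each antibody sample had 1 peak list, each mark had 1 list called on its 3 samples together, and the IgG samples entered as controls of those calls. The labels do not say whether samples of a mark came from separate animals, so p-values measure only the spread between these samples, which may be technical.

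Treatment libraries held 40551842 to 78891920 fragments and IgG libraries 3110985 to 3713369, and each call was scaled to the IgG depth. The replicate lists held 93684 to 152889 peaks, with a median fold enrichment of 1.43 to 1.62 over the control, so a peak here is a permissive call. The control library was not the same for all lists. IgG replicate 2 served H3K27ac replicate 2 and H3K4me1 replicates 1 and 2, IgG replicate 3 served replicate 3 of each mark, and H3K27ac replicate 1 alone was called against IgG replicate 1. Cell type markers were mixed. Of 5 smooth muscle markers, Acta2 and Des had a promoter H3K27ac peak in all 3 replicates, Tagln in 2, Cnn1 in 1 and Myh11, the smooth muscle myosin, in none. All 5 stromal markers (Pdgfra, Col1a1, Dcn, Lum and Vim) had one in all 3 replicates. Of 5 epithelial markers none did, with Krt8 and Ovgp1 in 1 replicate and Epcam, Pax8 and Foxj1 in none, and of 4 blood markers only Ptprc did, where 45.9% of all coding genes did. H3K4me1 was at the promoter in all 3 replicates for Acta2, Tagln and Des, for 4 of the 5 stromal markers, for Krt8 of the epithelial ones and for none of the blood markers, against 27.9% of coding genes. The part that other cells had in the results below was not tested, and fewer cells with a mark cannot be told apart from less of the mark per cell.

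A promoter was the window of 1 kb on either side of any start site of a protein-coding transcript, and it was marked when a peak overlapped it by at least 1 bp. Ptch1, Smo, Gli1, Gli2 and Gli3 had a promoter H3K27ac peak in all 3 replicates, which is 5 of the 9 genes against 45.9% of all protein-coding genes. Shh, Ihh, Dhh and Hhip had none in any replicate, which is 4 of 9 against 37.5%. The shares are close to the background, so the counts do not set the 9 genes apart as a group. The genes with none were the 3 ligands and Hhip.

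H3K4me1 was found in all replicates at fewer of the same promoters. Gli3 alone had a promoter H3K4me1 peak in all 3 replicates, 1 of 9 against 27.9% of coding genes, and it was also the only one with a peak in all 6 lists, against 24.3%. This count depends on single libraries, and can only rise when a list is left out. Without H3K4me1 replicate 2 it was 2, with Ptch1 joining Gli3, against 31.8% of coding genes, and without H3K4me1 replicate 3 it was 3, with Hhip and Gli1 joining, against 36.7%. In the pooled lists the marks were even, with H3K4me1 at 5 promoters (Ptch1, Smo, Hhip, Gli2 and Gli3; 56.3% of coding genes) and H3K27ac at 5 (56.2%). Ptch1, Smo, Gli1 and Gli2 had H3K27ac in all 3 replicates and H3K4me1 in fewer than 3, against 21.6% of coding genes. Smo was the only member with no H3K4me1 in any replicate beside H3K27ac in all, a state shared by 4.19% of coding genes. The reverse state, H3K4me1 in at least 1 replicate and H3K27ac in none, was found at Ihh, Dhh and Hhip against 4.64% of coding genes, and at Ihh and Dhh it rested on H3K4me1 replicate 1 alone, without which Hhip was the only one. Shh had no promoter peak in any of the 6 lists, against 32.8%. A stricter limit, a mean −log10 p-value of 1.3 or more per peak, left the same 5 genes with H3K27ac in all 3 replicates (30.2% of coding genes) and no member with H3K4me1 in all 3 (5.03%).

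**Figure D1:**
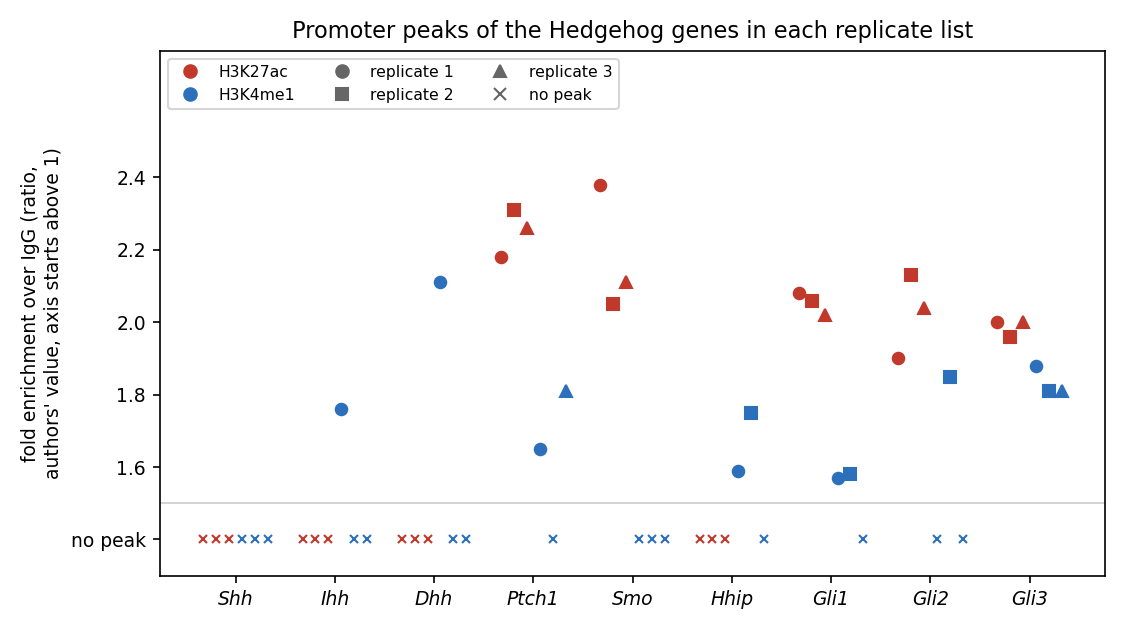
Fold enrichment over IgG (the authors' ratio, vertical axis) of the strongest promoter peak of each of the 9 genes, with 1 symbol per replicate list and crosses for lists with no promoter peak. The H3K27ac values of Ptch1, Smo, Gli1, Gli2 and Gli3 lie between 1.90 and 2.38, and Shh has crosses only.

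The kinds of peak differed in shape by mark. In the 3 H3K27ac replicates together, 23 peaks lay at the promoters of the 9 genes, with a median length of 2629 bp and a median fold enrichment of 2.06, while the 157 in gene bodies had medians of 590 bp and 1.49 and the 143 in flanks 789 bp and 1.53. H3K4me1 peaks were alike wherever they lay, with 16 at promoters (716 bp, 1.76), 303 in gene bodies (830 bp, 1.61) and 141 in flanks (800 bp, 1.62). The long genes carry these counts, since Gli3 gave 154 and Gli2 65 of the 303 H3K4me1 peaks in bodies and Gli3 gave 103 of the 157 of H3K27ac. The longest promoter peak of the replicate lists was nonetheless of H3K4me1, 8284 bp in replicate 3 at Gli3. These medians are descriptions, since peaks of a locus share libraries.

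The sequence just upstream of the start sites is shown for 2 genes whose promoters had H3K27ac in all 3 replicates and 2 whose promoters had it in none, to set covered beside uncovered sequence. These are the 250 bases before the RefSeq start on build GRCm38.p6, in the direction of transcription, with CpG dinucleotides in capitals. Smo is at chr6:29735247-29735496 on the plus strand, and Gli2 at chr1:119053620-119053869, Ihh at chr1:74951673-74951922 and Hhip at chr8:80058009-80058258 on the minus strand.
Smo upstream: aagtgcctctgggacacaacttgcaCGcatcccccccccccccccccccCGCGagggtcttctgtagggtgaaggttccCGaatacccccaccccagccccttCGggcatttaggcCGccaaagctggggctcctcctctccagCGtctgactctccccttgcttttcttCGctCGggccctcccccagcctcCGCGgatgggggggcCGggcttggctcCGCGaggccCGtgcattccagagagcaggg
Gli2 upstream: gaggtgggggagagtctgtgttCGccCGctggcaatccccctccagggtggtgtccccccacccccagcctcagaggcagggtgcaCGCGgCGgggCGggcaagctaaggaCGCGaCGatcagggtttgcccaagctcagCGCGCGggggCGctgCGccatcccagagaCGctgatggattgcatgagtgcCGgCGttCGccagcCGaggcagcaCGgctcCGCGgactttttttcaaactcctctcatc
Ihh upstream: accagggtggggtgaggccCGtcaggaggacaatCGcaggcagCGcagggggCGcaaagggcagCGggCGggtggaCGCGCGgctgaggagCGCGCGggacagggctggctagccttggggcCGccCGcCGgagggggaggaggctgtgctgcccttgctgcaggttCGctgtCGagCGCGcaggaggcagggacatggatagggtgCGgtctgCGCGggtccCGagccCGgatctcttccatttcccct
Hhip upstream: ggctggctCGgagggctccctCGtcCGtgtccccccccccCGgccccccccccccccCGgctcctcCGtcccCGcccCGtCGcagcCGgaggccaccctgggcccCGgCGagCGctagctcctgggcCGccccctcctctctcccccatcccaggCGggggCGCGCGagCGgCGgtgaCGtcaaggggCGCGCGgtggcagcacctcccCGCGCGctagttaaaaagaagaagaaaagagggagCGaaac

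Smo had 15 CpG and Gli2 22 in this stretch, and Ihh had 24 and Hhip 28. The median of 32851 RefSeq promoters was 6 and the upper quartile 16. Those promoters came from 27025 genes, more than the 21853 coding genes used as background elsewhere. H3K27ac peaks covered all 250 bases of the Smo stretch in replicates 1 and 2 and 81 bases in replicate 3. They covered 0, 250 and 209 bases of the Gli2 stretch in replicates 1, 2 and 3. The Ihh and Hhip stretches had 0 bases under peaks in every replicate of both marks. RefSeq promoters matched 7 of the 9 genes, all but Shh and Gli1. Of the others matched, Ptch1 and Gli3, with promoter H3K27ac, had 41 and 34 CpG in this stretch and Dhh, without it, had 9. The Ptch1 stretch lies deep in the gene, before a later start, and H3K27ac covered 0, 60 and 0 of its bases in replicates 1, 2 and 3. The counts of the 3 matched genes without H3K27ac, 9 to 28, thus overlapped those of the 4 with it, 15 to 41. Over the wider window of 1 kb on either side of the first start, the ratio of observed to expected CpG was 0.885 at Gli3, at percentile 97.1 of coding promoters, and 0.757 at Ihh, at percentile 87.5, with 0.391 at Shh, 0.394 at Dhh and 0.470 at Hhip, all below the median of 0.478.

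Of the ligand genes, Shh and Ihh were nearly empty of both marks within 50 kb, and Dhh had H3K4me1 but no H3K27ac in its body. Shh (chr5:28456815-28467256, minus strand) had H3K27ac peaks over 0.806%, 0% and 0.466% of its locus in replicates 1, 2 and 3 and H3K4me1 peaks over 0.530%, 0.157% and 0%. Only 6 replicate peaks lay in the whole locus, 3 of each mark, all with a fold enrichment of 1.35 to 1.45, and both pooled lists had none. Shh is known for enhancers that lie far outside the window used here, which were not analysed. With flanks of 100 kb the coverage was 3.00% for H3K27ac and 6.21% for H3K4me1 on average, and 6 distal regions had both marks. The locus also holds a start of the neighbor Rbm33, and no replicate peak there overlapped its window. Over all its starts, Rbm33 had promoter H3K27ac in 3 replicates and H3K4me1 in 2.

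Ihh (chr1:74945315-74951672, minus strand) had H3K27ac over 0%, 1.63% and 0.802% of its locus and H3K4me1 over 2.41%, 0.629% and 0%, and the groups overlapped. Its 4 H3K27ac peaks were all upstream in the flank, the nearest 4842 bp from the start in replicate 2, and its gene body had no H3K27ac in any replicate. A single H3K4me1 peak of 871 bp, in replicate 1, began 776 bp into the gene with a fold enrichment of 1.76. The pooled lists had no peak in the locus, and Cfap65, whose promoter lies in it, had no promoter peak in any replicate. With flanks of 100 kb the coverage was 2.34% for H3K27ac and 4.07% for H3K4me1 on average, and 3 distal regions had both marks.

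Dhh (chr15:98891152-98898540, minus strand), the ligand known from the testis and peripheral nerve, had H3K27ac around it but none in the gene. H3K27ac covered 13.4%, 15.2% and 9.18% of the locus and H3K4me1 6.03%, 6.77% and 2.98%, so that every H3K27ac list was above every H3K4me1 list. None of its 21 H3K27ac peaks lay in the gene body, and 12 of them overlapped the promoters of the neighbors Kmt2d, Rhebl1, Lmbr1l and Tuba1b, all of which had H3K27ac in all 3 replicates. In the gene body the order turned: H3K27ac covered 0% in every replicate and H3K4me1 12.4%, 12.2% and 9.20%. H3K4me1 replicate 1 had a promoter peak of 191 bp with a fold enrichment of 2.11, which began 106 bp past the start. The other H3K4me1 peaks in the body lay 2062 to 4142 bp past the start, and 2 of them touched the neighboring Rhebl1 promoter.

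Ptch1 (chr13:63508328-63573598, minus strand), the receptor, carried H3K27ac over the first stretch of the gene. In each replicate, 3 H3K27ac peaks overlapped windows around its 5 start sites. They ran from −622 to 2416, from 6898 to 7571 and from 8228 to 12632 bp relative to the first start in replicate 1. In replicate 2 they ran from 369 to 4096, from 4942 to 7672 and from 8386 to 10051 bp, and in replicate 3 from −29 to 2426, from 5039 to 7605 and from 8502 to 11130 bp. Further H3K27ac peaks lay between these, among them one from 4126 to 6216 bp in replicate 1 with a fold enrichment of 2.28, and the edges differed among replicates. The first start was covered in replicates 1 and 3 and not in replicate 2. The pooled list had 1 peak there of 13667 bp, from −143 to 13523 bp, with a fold enrichment of 2.38. The strongest promoter peaks had fold enrichments of 2.18, 2.31 and 2.26, at percentiles 97.5, 98.6 and 97.5 of all peaks in their lists.

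H3K4me1 touched the Ptch1 promoter windows in replicates 1 and 3 and not in replicate 2. Those peaks ran from −854 to −585 bp in replicate 1, before the start, and from −716 to 144 bp in replicate 3, across it. No other member had its first start under H3K4me1 in any replicate. Fancc, the neighbor with a start in the locus, had promoter peaks of both marks in all 6 lists. Deeper in the gene H3K4me1 was the broader mark. It covered 27.1%, 29.2% and 37.6% of the gene body, where H3K27ac covered 17.4%, 16.0% and 18.5%. Over the whole locus H3K4me1 covered 14.2%, 15.9% and 19.7% and H3K27ac 8.77%, 8.26% and 8.47%. Under the −log10 p-value limit of 1.3 the order turned, to 3.22% for H3K4me1 and 5.48% for H3K27ac on average (exact permutation test, p = 0.3).

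Smo (chr6:29735503-29761365, plus strand), the transducer, had the plainest promoter of the 9. Its H3K27ac peak ran from −673 to 1536 bp of the start in replicate 1, from −962 to 1590 bp in replicate 2 and from −278 to 1413 bp in replicate 3, with fold enrichments of 2.38, 2.05 and 2.11. It was the only member whose first start was covered by H3K27ac in all 3 replicates, against 24.7% of coding genes. No H3K4me1 replicate had a peak in the window, and the pooled H3K4me1 list had 1 of 348 bp from −870 to −523 bp. Over the locus H3K27ac covered 14.4%, 14.8% and 13.0% and H3K4me1 8.74%, 12.8% and 15.5%, and the groups overlapped. Much of this was not in Smo: 37 of 43 replicate peaks of each mark were flanking. Of the neighbors, Ahcyl2 had promoter peaks in all 6 lists and Tspan33 in none. With the bodies and promoters of other coding genes left out, H3K27ac covered 8.07% on average and H3K4me1 2.79%, with no overlap (exact permutation test, p = 0.1).

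Hhip (chr8:79965851-80058006, minus strand) encodes a membrane protein that binds and holds back the ligands. It had H3K4me1 through the gene and little H3K27ac. H3K4me1 covered 15.4%, 16.3% and 14.6% of the gene body and H3K27ac 8.23%, 2.47% and 1.18%, so the groups did not overlap. The H3K27ac value of replicate 1, the list with the most peaks, was above the other two. The nearest H3K27ac peak of any replicate began 5544 bp past the start. H3K4me1 peaks began 768 bp past the start in replicate 1 and 780 bp past it in replicate 2, and the first in replicate 3 began 12419 bp past it. Over the locus H3K4me1 covered 9.27%, 10.8% and 8.20% and H3K27ac 6.46%, 2.30% and 0.834%. No replicate peak of either mark in this locus reached a −log10 p-value of 1.3, so this contrast between replicate lists rested on weak calls. The pooled H3K4me1 list had peaks above that value, up to 1.73.

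**Figure D2:**
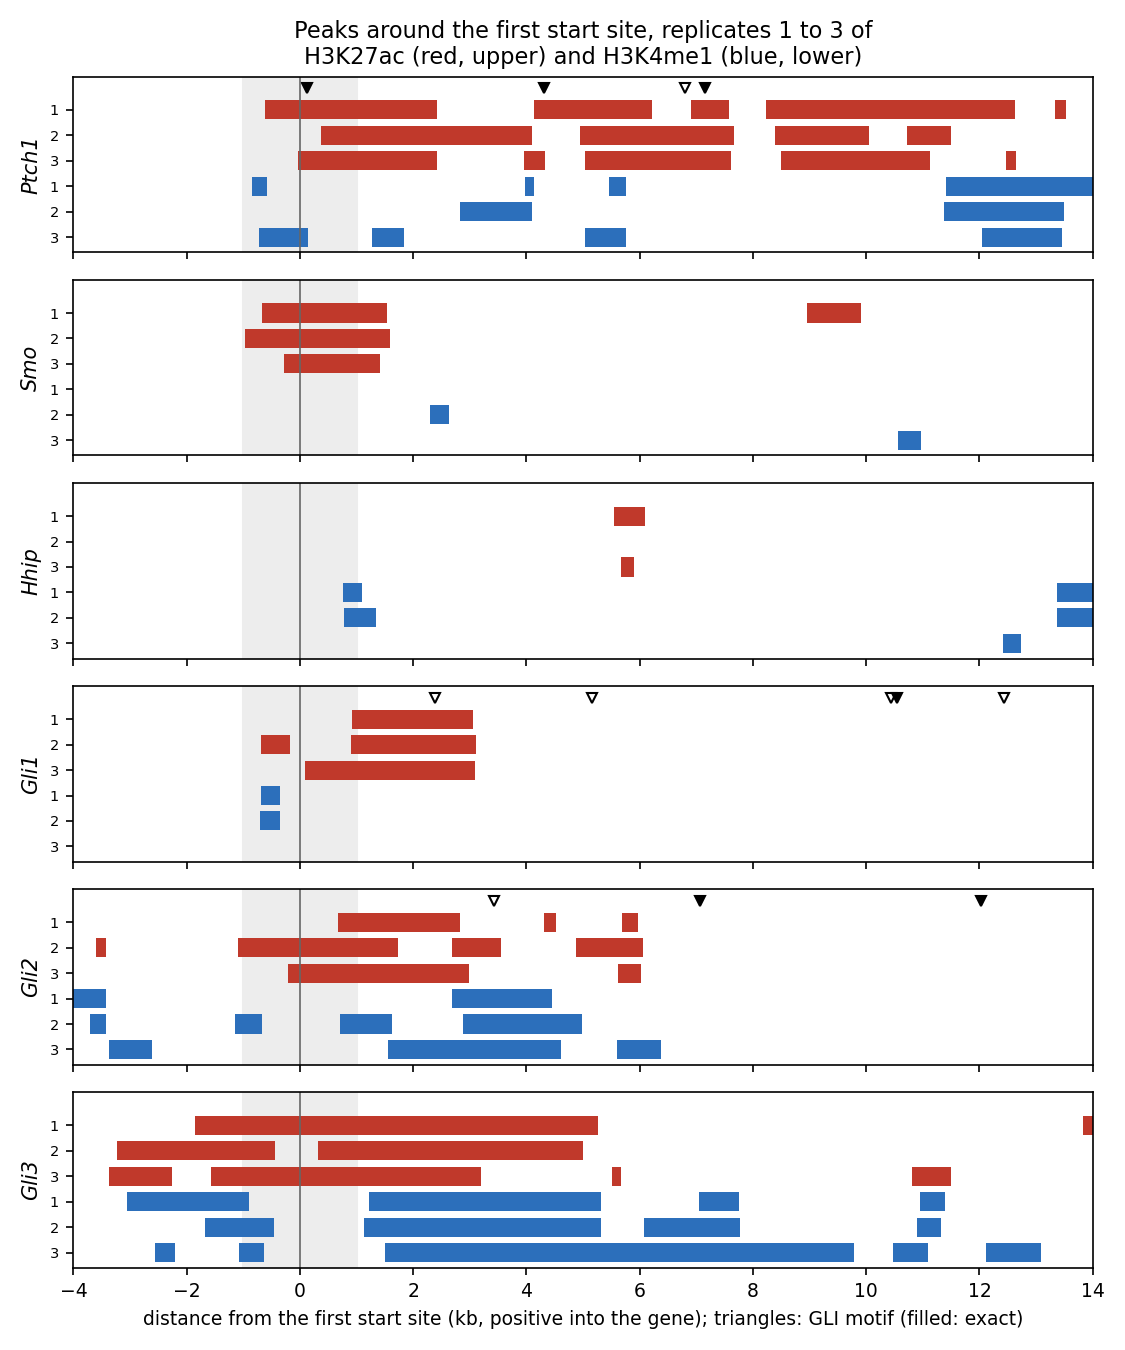
Peaks of the 3 H3K27ac (red) and 3 H3K4me1 (blue) replicates around the first start site of Ptch1, Smo, Hhip, Gli1, Gli2 and Gli3, with distance in kb on the horizontal axis, the 1 kb promoter window shaded and GLI motifs as triangles. H3K27ac lies over the start or just inside the gene in all but Hhip, and H3K4me1 at Gli3 leaves the start itself free.

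Gli1 (chr10:127329882-127341974, minus strand), whose transcription is a common readout of the pathway, had H3K27ac inside the gene and no H3K4me1 there. The H3K27ac peak ran from 926 to 3054 bp past the first start in replicate 1, from 909 to 3110 bp in replicate 2 and from 89 to 3093 bp in replicate 3, with fold enrichments of 2.08, 2.06 and 2.02. The first start itself was under no peak in any replicate, and in replicate 2 a separate upstream peak of 527 bp ended 166 bp before it. H3K4me1 peaks of 334 and 362 bp lay upstream in replicates 1 and 2, from −692 to −359 and from −712 to −351 bp, and replicate 3 had none. H3K4me1 covered 0% of the gene body in all 3 replicates and H3K27ac 17.6%, 18.2% and 24.8%.

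Over the Gli1 locus H3K27ac covered 9.89%, 12.5% and 10.6% and H3K4me1 4.98%, 6.06% and 7.14%. Every H3K27ac list was again above every H3K4me1 list. The locus is crowded, and 12 of its 16 flanking H3K27ac peaks overlapped other promoters. Those of Mbd6, Ddit3, Mars and R3hdm2 had H3K27ac in all 3 replicates, and those of Arhgap9, Inhbe and Inhbc had no peak of either mark. With flanks of 100 kb the marks covered 12.7% and 12.8% on average.

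Gli2 (chr1:118834132-119053619, minus strand), the main activator, had a promoter H3K27ac peak from 674 to 2828 bp past the first start in replicate 1, from −1098 to 1731 bp in replicate 2 and from −209 to 2979 bp in replicate 3. Its fold enrichments were 1.90, 2.13 and 2.04. A window of 250 bp on either side of the start was met in only 2 of 3 replicates, so Gli2 dropped out of the H3K27ac count with that window. H3K4me1 touched the promoter in replicate 2 only. Beyond it, H3K4me1 covered 13.6%, 11.8% and 13.3% of the long gene body and H3K27ac 2.81%, 3.78% and 2.93%. Over the locus the values were 9.84%, 8.51% and 9.61% for H3K4me1 and 2.46%, 3.00% and 2.44% for H3K27ac, a ratio of means of 3.54. The flanks were poor in both marks, with 1.28% to 1.71% covered by H3K27ac and 1.32% to 1.62% by H3K4me1.

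Gli3 (chr13:15463235-15730026, plus strand), the main repressor, had the most H3K4me1 coverage of the 9 loci and the most peaks of both marks. H3K27ac spread across its promoter, from −1858 to 5266 bp of the first start in replicate 1, in 2 blocks from −3230 to −448 and from 312 to 5001 bp in replicate 2, and from −1574 to 3202 bp in replicate 3. H3K4me1 flanked the start on both sides in every replicate. Its upstream peaks ended at −902, −458 and −626 bp and its downstream peaks began at 1220, 1136 and 1508 bp, so the start lay in a gap of H3K4me1 in all 3 replicates. The fold enrichments were 2.00, 1.96 and 2.00 for H3K27ac and 1.88, 1.81 and 1.81 for H3K4me1. H3K4me1 covered 23.9%, 19.3% and 22.2% of the locus, at percentiles 94.6 to 97.6 of all coding loci, and H3K27ac covered 13.1%, 10.7% and 12.5%, at percentiles 78.7 to 88.1.

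Side by side, the loci differed in which mark covered more sequence. Coverage was compared between the 3 lists of each mark with a two-sided exact permutation test, whose smallest possible p is 0.1 with 3 against 3, so that no gene could reach 0.05. H3K4me1 covered more in every list at Ptch1, Hhip, Gli2 and Gli3, which is 4 of 9 against 13.2% of coding loci, by 8.09 ± 1.65, 6.24 ± 1.85, 6.69 ± 0.449 and 9.69 ± 1.53 percentage points (difference of means ± SE, n = 3 per mark, exact permutation p = 0.1, adjusted over 9 genes 0.15). H3K27ac covered more in every list at Dhh and Gli1, 2 of 9 against 18.3% of coding loci, where H3K4me1 minus H3K27ac was −7.34 ± 2.13 and −4.93 ± 0.999 percentage points (exact permutation p = 0.1, adjusted 0.15). In the pooled lists the order turned at Gli1, with 14.7% for H3K27ac and 16.1% for H3K4me1. Shh, Ihh and Smo had overlapping groups, with exact p of 0.7, 1 and 0.6. At a typical coding locus the medians of the 6 lists were 4.05% to 5.53%, and the 4 loci with more H3K4me1 were all above that range in H3K4me1.

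The values within lists that shared a control library were as follows, without a test. Where all lists of the marks did not overlap, the order within such a subset is fixed, so only the sizes add to the result. Against IgG replicate 2 the differences were 6.76 points at Ptch1, 7.76 at Hhip, 6.18 at Gli2 and 10.9 at Gli3, and −8.81 at Dhh and −6.98 at Gli1. Against IgG replicate 3 they were 11.3 at Ptch1, 7.36 at Hhip, 7.17 at Gli2 and 9.71 at Gli3, and −6.20 at Dhh and −3.43 at Gli1. With other coding genes left out, the Dhh lists overlapped (difference −4.44 points, exact permutation p = 0.4), and under the −log10 p-value limit of 1.3 the Gli3 lists overlapped (1.36 points, exact permutation p = 0.8).

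**Figure D3:**
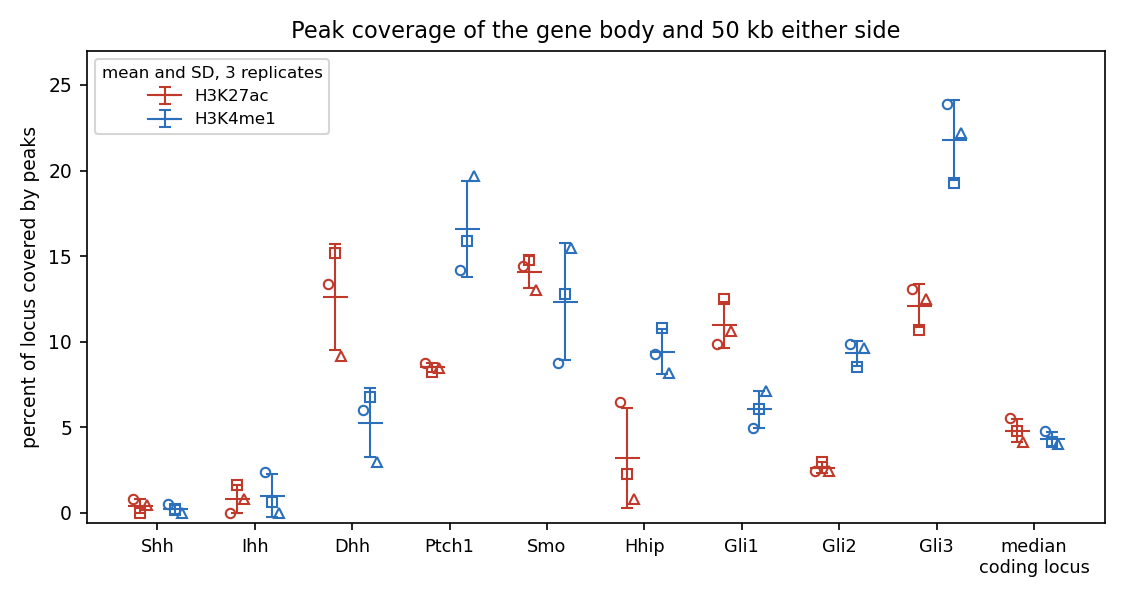
Percent of each locus covered by peaks (vertical axis) in the 3 replicates of each mark, with circles, squares and triangles for replicates 1, 2 and 3, bars for the mean and whiskers for the SD, and the median coding locus of each list at the right. H3K4me1 lies above H3K27ac at Ptch1, Hhip, Gli2 and Gli3 and below it at Dhh and Gli1.

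**Figure D4:**
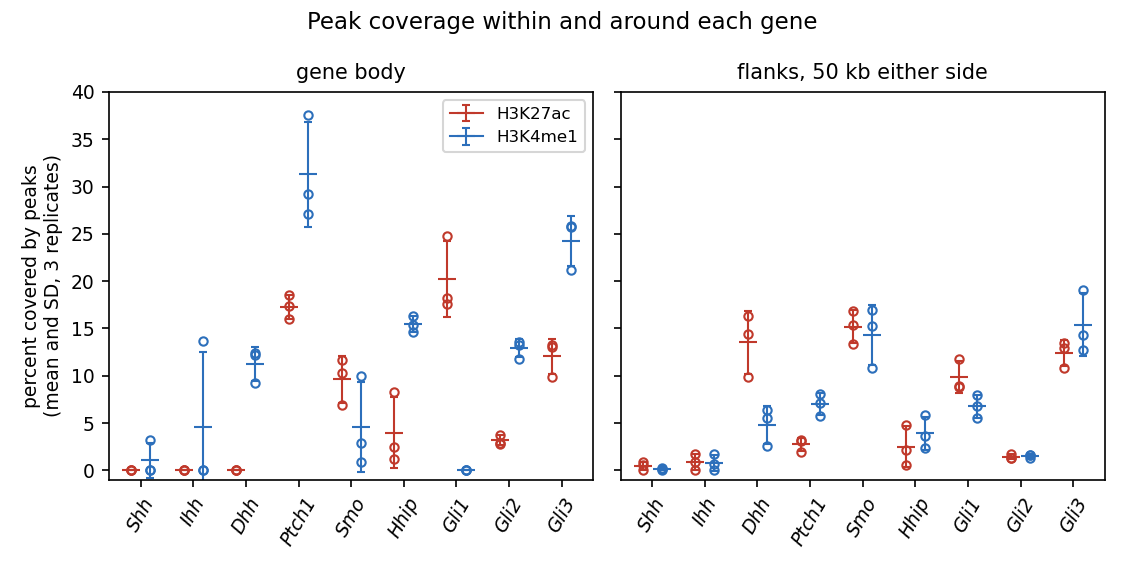
The same coverage split into the gene body (left) and the flanks of 50 kb on either side (right), with 1 open circle per replicate, the mean and the SD. In the Gli1 body H3K4me1 is at 0% in all replicates, and in the Dhh body H3K27ac is.

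Distal regions with both marks, the usual pattern of an active enhancer, were most numerous at Gli3, by a margin that depended on the lists. The count at Gli3 fell from 27 to 10 without H3K27ac replicate 2 and to 4 of 11 when all 3 replicates of both marks were required, which is 1.09 per 100 kb against 2.38 at Smo. Such a region was sequence under H3K27ac peaks of at least 2 replicates, met by sequence under H3K4me1 peaks of at least 2 replicates, outside every promoter window. The 9 loci held 46 of 39000 in the genome: 27 at Gli3, 6 at Smo, 5 at Ptch1, 3 at Gli2, 2 each at Dhh and Hhip, 1 at Gli1 and 0 at Shh and Ihh. At least 1 was found in 7 of 9 loci, against 56.8% of coding loci. Per length Gli3 had 7.36 regions per 100 kb, at percentile 96.4 of coding loci, where the median locus had 0.797. Smo had 4.77, at percentile 90.6, Ptch1 3.03 and Gli2 0.939 per 100 kb. Of the 27 at Gli3, 18 were in the gene and 9 in its flanks, which hold no other coding promoter.

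Position and neighbors set the other loci apart. Of the 6 regions at Smo, 5 were inside the neighbor Ahcyl2, 36.8 to 61.7 kb past the Smo start, and the region at Gli1 was inside Ddit3. At Ptch1, 4 of 5 regions were within the gene, 4.03 to 24.8 kb past the start, and at Gli2 all 3 were, 19.7 to 100.3 kb past it. Those 4 in Ptch1 were only 10 to 214 bp long. The ones at 4.03 and 12.6 kb lay inside the pooled H3K27ac promoter peak of 13667 bp. Both regions at Dhh were upstream, at −30.7 and −32.4 kb.

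All 6 lists met 11 of the 46: 4 at Gli3, 4 at Smo, 2 at Gli2 and 1 at Ptch1, and the genome-wide share of such regions was not computed. The one with the most sequence under all 6 lists at once was at Gli3, chr13:15422588-15423628, at −40.1 kb, with 773 bp common to all. At Smo it was chr6:29793425-29794835, in Ahcyl2 (366 bp), at Gli2 chr1:118952825-118953759, inside the gene (104 bp), and at Ptch1 chr13:63601144-63602820, at −28.4 kb (32 bp). Some regions were slivers, down to 1 bp at Gli3, and 38 of the 46 were at least 150 bp long, 22 of them at Gli3. Leaving out a library also asks for both of the remaining replicates of its mark, and lowered the count whichever library it was. Without H3K27ac replicate 2 there were 23 regions, and without H3K27ac replicate 3 there were 27, 11 at Gli3. The whole genome then held 21792 and 26170, where the main definition gave 39000. With all 3 replicates of both marks required, 11 remained here and 13508 in the genome. Without H3K27ac replicate 1, 2 or 3 Gli3 had 4.36, 2.73 or 3.00 regions per 100 kb, below the 4.77, 3.97 and 3.97 at Smo, so which of them led per length depended on the lists. No region of these loci remained under the −log10 p-value limit of 1.3, where 2781 remained in the whole genome.

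**Figure D5:**
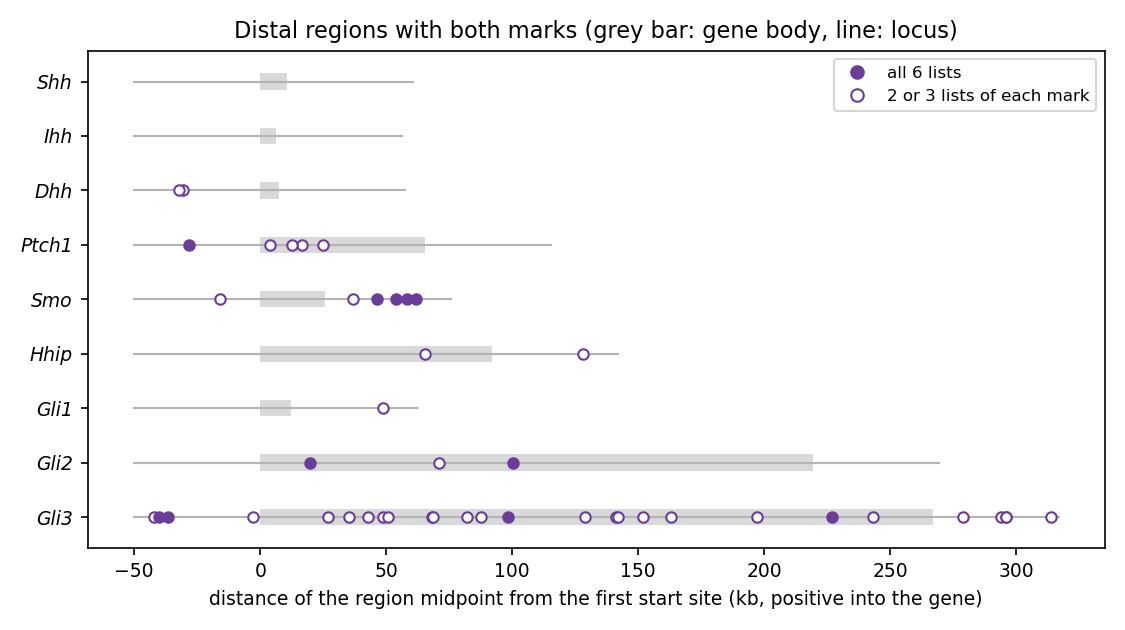
Midpoints of the 46 distal regions with both marks (circles, filled where all 6 lists met the region) along the 9 loci, by distance in kb from the first start, with the gene body as a gray bar. Gli3 has 27 circles along its length, and Shh and Ihh have 0.

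Gli proteins bind DNA at the sequence GACCACCCA, and Ptch1, Gli1 and Hhip are known targets. The 9 loci held 22 exact matches on either strand and 49 matches to GACCNCCCA, which includes the exact ones. Of the 49, 35 (71.4%) lay under no replicate peak, against 83.1% of the 34219 matches in all coding loci, and 6 (12.2%) lay under H3K27ac of at least 2 replicates, against 4.23%. Ptch1 had 11, with 4 (36.4%) under H3K27ac of at least 2 replicates, and all 4 were inside the pooled peak of 13667 bp. These 4, the Gli1 match under H3K27ac in all 3 replicates and the Smo match at the edge of a distal region with both marks are shown because they are the ones under H3K27ac in at least 2 replicates. Each is given from 10 bases before the match to 10 after, in the direction of the motif, with the motif in capitals and its distance in bp from the first start.
Ptch1 +129: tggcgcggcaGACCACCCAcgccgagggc
Ptch1 +4309: cctcagccctGACCACCCAagtcgagcag
Ptch1 +6803: attcaagccgGACCTCCCAgtatttgctg
Ptch1 +7159: aaagtagagaGACCACCCAggtaggcaac
Gli1 +2388: ccgcatccaaGACCTCCCAgctcgacatt
Smo −16617: acatggtgggGACCACCCAtgtggtagag

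At Ptch1 the match nearest the start, at chr13:63573455-63573483, lies in an untranslated exon, and the others, at chr13:63569275-63569303, chr13:63566781-63566809 and chr13:63566425-63566453, in introns. H3K27ac covered the match at 7159 bp in 3 replicates and the other 3 in 2 replicates each. Among the replicate lists, H3K4me1 covered only the match at 129 bp, in 1 replicate. In the pooled list, H3K4me1 peaks from −993 to 154 bp and from 5029 to 7187 bp covered the matches at 129, 6803 and 7159 bp. The Gli1 match, at chr10:127339572-127339600, is in an intron and had no H3K4me1. The Smo match, at chr6:29719063-29719091, lies upstream of the gene and was under H3K27ac in 2 replicates. No H3K4me1 replicate covered it, since the peaks of replicates 1 and 2 ended at −16678 and −16675 bp. A pooled H3K4me1 peak, from −17488 to −16574 bp, did cover it. The matches at 129, 4309 and 7159 bp of Ptch1 and the Smo match are exact. The Ptch1 match at 6803 bp and the Gli1 match differ from the exact motif at its central base. The matches lie on the plus strand at Gli1 and at 7159 bp of Ptch1, and on the minus strand at the rest.

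Gli2 had the most matches, 12, of which none was under H3K27ac in at least 2 replicates and 2 were under H3K4me1 in at least 2. Every match at Shh, Ihh, Dhh and Hhip (3, 6, 2 and 2) lay outside all replicate peaks. No member had a match in the 300 bases from 250 before to 50 after its first start, where 0.210% of coding promoters had the exact motif and 1.01% the looser one. In the window of 2 kb around the first start, Ptch1 alone had one, 1 of 9 against 1.71% for the exact motif and 6.10% for the looser one. Windows around later starts were not searched for these shares. Of the 1 kb windows on the distal regions with both marks, 1 of 46 had the exact motif, against 0.692% of all such regions. For the looser motif it was also 1 of 46, against 1.85%. A match is only a run of letters, and binding was not measured.

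Other genes of the pathway, taken from 3 lists, were marked to different degrees. Of 12 genes of ligand release and reception, 6 had promoter H3K27ac in all 3 replicates and 3 had H3K4me1 in all 3, against the 45.9% and 27.9% of all coding genes. Disp1, which exports the ligands, and the co-receptor Cdon had both marks in all 6 lists. The co-receptor Boc had H3K27ac in 3 replicates and H3K4me1 in none, the same state as Smo. Gas1, a further co-receptor, had H3K27ac in 3 and H3K4me1 in 1. Scube3, a relative of the ligand release factor Scube2, and Gpr161, a ciliary receptor that holds the pathway back, had none in any list, the same state as Shh.

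Of 17 genes of the intracellular relay and the cilium, 15 had promoter H3K27ac in all 3 replicates and 10 had H3K4me1 in all 3, against 45.9% and 27.9% of coding genes. These 10 had both marks in all 6 lists, against 24.3%, as Gli3 did: Sufu, which restrains the Gli proteins, Spop and Btrc, which lead to their degradation or processing, Gsk3b and Prkaca, kinases that act on them, Evc, Evc2, Iqce and Efcab7, of the complex that works with Smo, and Arl13b, a ciliary GTPase. The exceptions for H3K27ac were Kif7 with 1 replicate and Kif3a with 2. Many genes of this list are active in most cell types.

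Of 9 response genes, 3 had promoter H3K27ac in all 3 replicates and 3 had H3K4me1 in all 3, against the same 45.9% and 27.9%. Ccnd2, a cyclin, and Bcl2, a survival factor, had both in all 6 lists, 2 of 9 against 24.3%. Nr2f2, a nuclear receptor of the uterine stroma, had H3K27ac in 3 and H3K4me1 in replicates 1 and 2, which is the state of Gli1. Foxf1, Foxf2 and Foxl1, forkhead genes that answer Hedgehog signals in gut mesenchyme, had no promoter peak in any list, which at 3 of 9 is at the 32.8% of coding genes. Bmp4, a secreted factor of the same response, had only H3K4me1 in replicate 1, as Ihh and Dhh did, and Cul3, of the relay list, shared the state of Ptch1.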

How the data were processed

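ChIC-Seq libraries came from oviductal muscle cells, 3 per antibody. Per the labels, the authors used cutadapt, Bowtie2 and MACS2 on GRCm38.p5. Other steps before peak calling are not given in the sources used here. Per the file headers, the authors called broad peaks with MACS 2.2.7.1 in paired-end mode, with p cutoffs of 0.05 (strong) and 0.1 (weak), keeping duplicates and matching the larger library to the depth of the smaller. The deposited pileup is therefore coverage signal at IgG depth. The deposited fold enrichment is a ratio of pileup to local background, to which the caller adds a constant, which lowers the ratio where background is low. The deposited −log10 p-value is a mean over the region, and the deposited −log10 q-value column was not used. Depth of the IgG libraries limits how finely a peak can be told from background.

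Genes and starts were those of GENCODE release M21. On 21 chromosomes 0 of 848801 peaks passed the ends of GRCm38.p6. Coverage was the merged length of a list's peaks over the locus length. "The first start" is the most upstream start of a protein-coding transcript. Promoters, distal regions and motifs were handled as described with the results. The text names all 9 genes, the neighbors with a promoter in their loci, pathway genes with a promoter peak in all 6 lists or none or in the same state as a member, and per locus the distal region with most sequence under all 6 lists. Gas1, Kif7 and Kif3a were named after their values were seen. The members and lists were chosen with earlier results of these data known. Interval functions were tested on simulated data, where 0 of 800 checks differed. Calculations used Python 3.11.15, numpy 2.4.6, pandas 2.3.3, scipy 1.17.1 and pysam 0.24.0.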

Additional observations from a re-analysis of the deposited data

How the results depend on the processing

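The locus coverage differences below are H3K4me1 minus H3K27ac in percentage points. Of 198 recomputed values, 20 changed sign and 31 fell to 0, moved beyond the replicate SD where there was no test or, for counts, by over 1.5 times. The other 147 include values that could not move, such as the differences under the replicate block and counts of a mark with a library of the other left out. They kept their direction, not always their size, as at Gli3, where the difference fell from 9.69 to 1.36 under a −log10 p-value limit of 1.3. Of the 20, 16 were at Shh, Ihh and Smo, whose lists overlapped to begin with. The count of 5 promoters with H3K27ac in all 3 replicates was 4 with a window of 250 bp or one at least 50% covered, and 5 in the other alternatives, of which those leaving out an H3K4me1 library could not change it. The cause of each change was not tested.

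With flanks of 20 kb the differences were 0.219 at Shh and -0.0201 at Ihh. With flanks of 100 kb they were 3.21 at Shh, 0.885 at Smo and 0.121 at Gli1, and 80 distal regions had both marks. Over the gene body alone they were 1.06 at Shh and 11.3 at Dhh, with 26 regions. Under a −log10 p-value limit of 1.3 they were 0 at Shh, Ihh and Hhip, where no peak was left, and -2.26 at Ptch1, and the counts of promoters with H3K4me1 in all 3 replicates, of promoters with both marks in all 6 lists and of regions were all 0. With a pileup floor of 5 genome means they were 0.229 at Shh and 1.54 at Smo. Against IgG replicate 2 they were 0.343 at Shh, -0.106 at Ihh and -6.98 at Gli1, and against IgG replicate 3 -0.802 at Ihh, 11.3 at Ptch1 and 2.51 at Smo. With other coding genes left out the difference was -0.0250 at Ihh. In the pooled lists it was 0 at Shh and Ihh, 14.3 at Ptch1, 3.68 at Smo, 12.1 at Hhip, 1.37 at Gli1, 12.4 at Gli2 and 18.8 at Gli3, with 5 promoters with H3K4me1 and 4 with both marks (56.3% and 50.5% of coding genes). A promoter window of 250 bp on either side gave 0 and 0 such promoters (12.5% and 10.1%), one of 3 kb gave 3 and 3 (40.4% and 35.5%), and a demand that a window be at least 50% covered gave 0 and 0 (5.21% and 3.83%). Regions in all 3 replicates of both marks numbered 11. Regions of at least 150 bp, an alternative chosen after the data were seen, numbered 38.

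Leaving out 1 library at a time, the difference ranged from -0.495 to 0.711 at Ihh and from -3.31 to 0.0780 at Smo, the promoters with H3K4me1 from 1 to 3, those with both marks from 1 to 2, and the regions from 23 to 41. Beyond Ihh and Smo, no locus changed sign. At Dhh, Ptch1, Hhip, Gli1, Gli2 and Gli3 none could, since the lists of the marks did not overlap there.

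With the replicate number as a block, an exact sign-flip test over 3 pairs cannot go below p = 0.25, which Dhh, Ptch1, Hhip, Gli1, Gli2 and Gli3 reached (difference at Gli3 9.69 points). The deviations of same-numbered lists had correlations of -0.0881, 0.319 and 0.468 over coding loci, and the numbers were not treated as pairs. The pairs with 0.319 and 0.468 also shared an IgG library. H3K27ac replicate 2 and H3K4me1 replicate 1, of unlike number but with the same IgG library, had 0.354.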
